A study of Homo sapiens with 6 samples.

Results

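The 10 genes described here encode transcription factors of the melanocyte and of the neural crest from which it arises: MITF, SOX10, PAX3, TFAP2A, TFAP2B, SOX9, SOX2, IRF4, FOXD3 and ETS1. They were chosen by name, and each symbol was matched to 1 of the 60617 gene identifiers counted in every tumor. RNA was sequenced from xenograft tumors of WM983-B, a long-used cell line of human melanoma. 3 tumors had been treated systemically with anle138b, a diphenyl-pyrazole compound known to bind α-synuclein oligomers, and 3 were untreated. By the form of their titles the samples also fell into a 2-library naming set (anle138b 3 and untreated 3) and a 4-library naming set (anle138b 1 and 2, untreated 1 and 2). The sources used here do not give the meaning of these sets, the dose, the length of treatment or the host animal. All tumors derive from 1 cell line and no label states that each grew in its own animal, so the p-values rest on the spread among libraries, which may be technical.

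Melanocytes descend from the neural crest, a migratory embryonic cell population. SOX10 and PAX3 together switch on MITF, the basic helix-loop-helix leucine zipper factor that drives the pigment genes and the survival of the lineage. TFAP2A works beside MITF at pigment genes and IRF4 acts below MITF on tyrosinase, whereas SOX2, SOX9 and FOXD3 belong to stem cell or early crest programmes and can counter SOX10 or MITF in melanoma.

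Gene counts summed to between 12400782 and 27599159 per tumor, and the 2 deepest libraries were anle138b 3 and untreated 3. Levels are given as CPM (read counts scaled to a fixed library total) with TMM scaling, on which 3 counts stood for 0.106 to 0.240 CPM. The 8 melanocytic markers (MLANA, PMEL, TYR, DCT, TYRP1, S100B, GPR143 and CDH19) were all well above the low-count filter, and their summed level lay between 14000 and 17500 CPM in the anle138b tumors and between 12600 and 16700 CPM in the untreated tumors. Of markers of other cells, the 6 fibroblast genes summed to between 436 and 821 CPM in the anle138b tumors and between 412 and 558 CPM in the untreated tumors, the 5 Schwann cell genes to between 290 and 308 CPM and between 259 and 415 CPM, and the 6 keratinocyte genes to between 17.8 and 22.8 CPM and between 18.9 and 26.0 CPM. The 7 lymphocyte markers summed to between 4.31 and 5.35 CPM in the anle138b tumors and between 4.89 and 6.58 CPM in the untreated tumors. Most of this was PTPRC, at 3.994 to 4.665 CPM and 4.444 to 4.811 CPM, the only 1 of the 7 that passed the filter. CD3D was at 0 in every library. In bulk tumors, fewer cells of a type and less RNA per cell cannot be told apart. The tumors were xenografts, and how host reads were handled is not given. Marker sums here and below may therefore depend on how many host reads were counted on human genes, and are not levels of host cells.

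The tumors carried the profile of a pigmented melanoma line, with MITF and SOX10 at the top of the 10 genes. Divided by the exonic length of each gene, MITF averaged 156 ± 17.7 CPM per kilobase (SD over all 6 tumors), a level above 99.2% of the protein-coding genes tested, and SOX10 averaged 128 ± 11.3 CPM per kilobase, above 98.9%. IRF4 followed with 50 ± 6.87 CPM per kilobase and ETS1 with 23.6 ± 1.76 CPM per kilobase. TFAP2A at 16.1 ± 3.38 and PAX3 at 13.8 ± 0.869 CPM per kilobase came next, then FOXD3 at 6.26 ± 1.18 and SOX2 at 4.14 ± 1.08 CPM per kilobase. SOX9 and TFAP2B stood last at 0.172 ± 0.224 and 0.0139 ± 0.0194 CPM per kilobase. Neighbours in this order overlapped in range for MITF and SOX10, for TFAP2A and PAX3, for FOXD3 and SOX2 and for SOX9 and TFAP2B; the other neighbours did not. MITF exceeded SOX10 within each of the 6 tumors, and so did FOXD3 over SOX2, whereas TFAP2A exceeded PAX3 in 4 of 6.

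Across the 6 tumors PAX3 varied least, with a coefficient of variation of 6.32%, followed by ETS1 at 7.44%, SOX10 at 8.86%, MITF at 11.3% and IRF4 at 13.7%. FOXD3 at 18.9%, TFAP2A at 21.0% and SOX2 at 26.2% varied most among the 8 genes with enough counts to test. Untreated tumor 2 was the highest library for MITF, SOX10, TFAP2A and IRF4 alike.

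**Figure D1:**
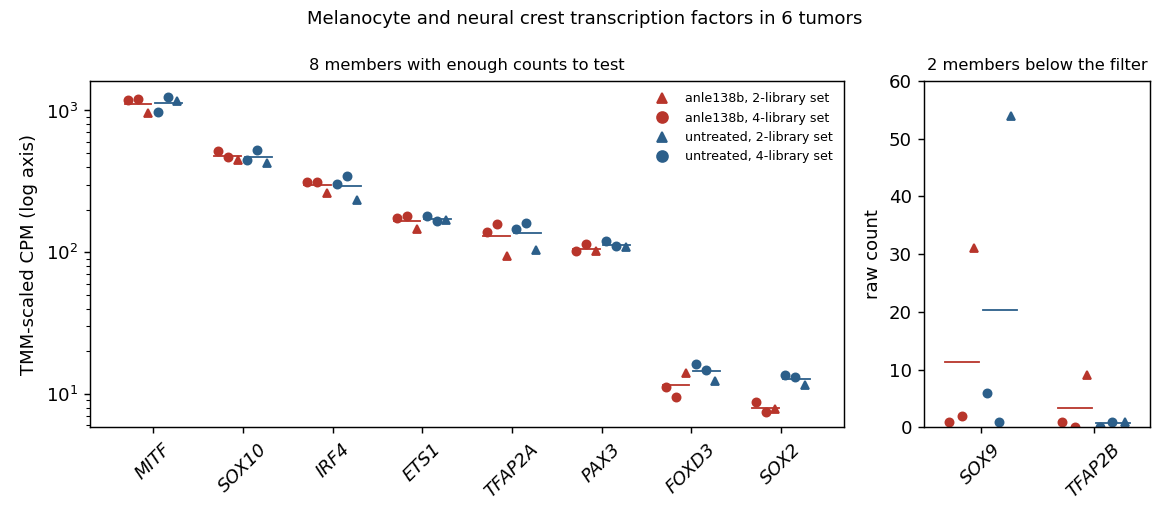
Level of each transcription factor in each tumor. The left panel gives TMM-scaled CPM on a log axis for the 8 genes that passed the low-count filter, and the right panel gives raw counts for SOX9 and TFAP2B; red symbols are anle138b tumors, blue symbols untreated tumors, triangles the 2-library set, circles the 4-library set, and bars group means. MITF lies between 953.5 and 1249 CPM in every tumor, the 3 anle138b tumors lie below the 3 untreated tumors for SOX2, and SOX9 reaches 31 and 54 counts in the 2-library set, against 1 to 6 counts in the 4-library set.

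Treatment with anle138b left the expression of these factors with no change that passed the test. Of the 8 genes tested, 0 rose and 0 fell in the anle138b tumors at an adjusted p of 0.05 (edgeR quasi-likelihood F test with naming set in the design), and 1, SOX2, had an unadjusted p under 0.05. Their median log2 fold change was -0.06, beside -0.01 over all genes. For comparison, 215 of the 20423 genes tested were called (1.05%), 134 of them higher (0.656%) and 81 lower (0.397%), with 1734 at an unadjusted p under 0.05; at the overall share of 1.05%, none of 8 genes called is near the background. The count over all genes depended on single tumors: it was 143 without anle138b 1, 392 without anle138b 2, 89 without anle138b 3, 136 without untreated 1 and 116 without untreated 3, and 9 without the set term.

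MITF had 1191, 1205 and 953.5 CPM in the anle138b tumors, against 969.3, 1249 and 1158 CPM in the untreated tumors. The groups interleaved, and the lowest value came from anle138b 3. The means were 1116 ± 141 CPM in anle138b tumors and 1125 ± 143 CPM in untreated tumors (SD, n = 3 each), and the log2 fold change was -0.02 ± 0.14 (SE, adjusted p = 0.993). Its 95% interval ran from -20.7% to 22.7%, so changes within those bounds were not resolved. Within the 2-library set the log2 difference was -0.28 and within the 4-library set it was 0.12, and the test of that difference gave an adjusted p of 0.824.

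MITF has several alternative first exons, and the counts are summed over the whole gene (chr3:69739435-69968337, plus strand, GRCh38), which has 15 annotated transcript starts, so the starts cannot be told apart. The start used in melanocytes lies in the 3′ part of the locus and is the one through which SOX10, PAX3, CREB and LEF1 are known to act. Its RefSeq promoter window (GRCh38.p14, chr3:69936342-69936641, plus strand, 250 bases before to 50 bases after the start) is shown for that reason. No motif of PAX3 was searched, and the motifs marked below are not those of factors in this group. Capitals mark exact matches, on either strand, to CTTTGAT (LEF/TCF, at position -204 from the start) and TGACGTCA (cAMP response element, at position -152).
MITF melanocyte start: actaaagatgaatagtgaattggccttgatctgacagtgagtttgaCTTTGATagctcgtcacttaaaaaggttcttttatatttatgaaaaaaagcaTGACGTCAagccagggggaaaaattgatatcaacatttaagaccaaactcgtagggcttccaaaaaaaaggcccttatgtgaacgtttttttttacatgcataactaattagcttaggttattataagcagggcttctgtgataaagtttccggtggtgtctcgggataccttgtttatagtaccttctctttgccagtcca
Of 35114 RefSeq promoter windows of this length, 2.62% hold CTTTGAT and 1.85% hold TGACGTCA. The other motifs searched, CACGTG and CATGTG (E-boxes), ACAAT (SOX core) and GCCNNNGGC (TFAP2), had no match in this window.

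The activators upstream of MITF were as level as MITF itself. SOX10 had 520.3, 467.7 and 445.7 CPM in the anle138b tumors, against 449.1, 529.1 and 427.5 CPM in the untreated tumors. The groups overlapped over most of their range, and the log2 fold change was 0.03 ± 0.11 (adjusted p = 0.986; 95% interval -13.8% to 20.9%). PAX3, the paired-box factor that acts with SOX10 on MITF, had 102.2, 113.7 and 101.7 CPM in the anle138b tumors, against 119.8, 109.9 and 108.0 CPM in the untreated tumors. Tumors anle138b 1 and 3 were the lowest of the 6, but anle138b 2 stood above 2 of the 3 untreated tumors, and the log2 fold change was -0.09 ± 0.09 (adjusted p = 0.928; -18.7% to 8.85%). SOX10 shares 89 exonic bases, 2.4% of its exons, with POLR2F on the other strand. The library kit does not mark strand, so reads from shared bases cannot be told apart; POLR2F had a log2 fold change of -0.04 (adjusted p = 0.981).

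TFAP2A and IRF4, which work with MITF, and also ETS1 were within the spread. TFAP2A, whose product binds beside MITF at pigment genes, had 138.9, 157.0 and 94.51 CPM in the anle138b tumors, against 145.1, 160.9 and 103.2 CPM in the untreated tumors. In each group the lowest tumor was that of the 2-library set, and the log2 fold change for treatment was -0.07 ± 0.10 (adjusted p = 0.945; -18.4% to 10.5%). IRF4, an interferon regulatory factor that cooperates with MITF on tyrosinase, had 314.2, 313.0 and 261.0 CPM in the anle138b tumors, against 301.3, 346.0 and 234.1 CPM in the untreated tumors. For IRF4 the untreated tumors enclosed the anle138b tumors, with a log2 fold change of 0.02 ± 0.10 (adjusted p = 0.988; -13.4% to 19.1%). ETS1, an ETS-family factor active in crest cells and in melanoma invasion, had 173.3, 178.7 and 146.0 CPM in the anle138b tumors, against 180.4, 164.7 and 169.9 CPM in the untreated tumors. Only anle138b 3 lay outside the untreated range, and the log2 fold change was -0.05 ± 0.10 (adjusted p = 0.966; -17.3% to 12.2%).

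SOX2, a stem cell factor of the SOXB1 group, stood apart from the rest without passing the test. It had 8.717, 7.508 and 7.819 CPM (114, 94 and 221 counts) in the anle138b tumors, against 13.58, 13.19 and 11.54 CPM (223, 178 and 272 counts) in the untreated tumors. All 3 anle138b values lay below all 3 untreated values, a separation in that direction that 4.47% of all genes tested showed and that held for 1 of the 8 factors. The means were 8.02 ± 0.63 CPM in anle138b tumors and 12.8 ± 1.08 CPM in untreated tumors (SD, n = 3 each), and the log2 fold change was -0.66 ± 0.14, a 95% interval of -49.4% to -21.2% (unadjusted p = 0.00103, adjusted p = 0.0703). The difference was -0.56 on the log2 scale within the 2-library set and -0.72 within the 4-library set. Over 16 alternative analyses it ranged from -0.72 to -0.59 with adjusted p from 0.0162 to 0.563, and passed the threshold in 2 of them, the DESeq2 Wald test (adjusted p = 0.0336) and the fit without a low-count filter (adjusted p = 0.0162). The fit without the filter gave some genes far smaller p-values at near-equal changes, so that pass is not counted as support. MET, for one, had an adjusted p of 3.06e-10 there, beside 0.0356 with the filter.

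SOX2 is a single-exon gene (chr3:181711924-181714436, plus strand) inside an intron of SOX2-OT, a long noncoding RNA on the same strand. No exonic base is shared, and SOX2-OT had 25, 19 and 40 counts in the anle138b tumors and 21, 18 and 39 counts in the untreated tumors, a log2 fold change of 0.14 (adjusted p = 0.967). The promoter window of SOX2 (chr3:181711675-181711974, plus strand) is printed since it is the member whose treatment values separated; capitals mark GCCNNNGGC at position -131 and CATGTG, read on the other strand as CACATG, at position -6 from the start.
SOX2: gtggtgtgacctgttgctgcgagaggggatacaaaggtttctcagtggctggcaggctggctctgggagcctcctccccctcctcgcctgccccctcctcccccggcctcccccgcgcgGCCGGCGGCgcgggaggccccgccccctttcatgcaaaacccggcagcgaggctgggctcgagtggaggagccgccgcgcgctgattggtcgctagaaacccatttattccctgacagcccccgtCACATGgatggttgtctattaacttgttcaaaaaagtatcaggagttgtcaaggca
CATGTG was held by 11.1% and GCCNNNGGC by 23.2% of all promoter windows. Both are frequent matches and are given as a description.

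FOXD3, a forkhead factor that keeps crest cells undifferentiated and represses MITF in avian crest, showed the widest uncertainty of the 8. It had 11.24, 9.584 and 13.98 CPM (147, 120 and 395 counts) in the anle138b tumors, against 16.32, 14.81 and 12.43 CPM (268, 200 and 293 counts) in the untreated tumors. In the 2-library set the anle138b tumor lay above the untreated tumor, whereas in the 4-library set both anle138b tumors lay below both untreated tumors. The pooled log2 fold change was -0.31 ± 0.18 (adjusted p = 0.756; -38.9% to 6.4%), with differences of 0.17 in the 2-library set and -0.58 in the 4-library set. The test of that difference between the sets gave 0.75 ± 0.28 (unadjusted p = 0.0253, adjusted p = 0.736), and over all genes 1345 had an unadjusted p under 0.05 and 0 passed the adjusted threshold (0%); 31 genes passed by DESeq2. FOXD3 shares 179 exonic bases (8.58% of its exons) with FOXD3-AS1 on the other strand, which had 12.5, 8.31 and 9.94 CPM in the anle138b tumors and 12.9, 12.8 and 12.6 CPM in the untreated tumors. The log2 fold change of FOXD3-AS1 was -0.32 and did not pass the test (adjusted p = 0.7).

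The promoter window of FOXD3 (chr1:63322317-63322616, plus strand) held 3 of the 6 motifs, the most of any window of these genes, which is why it is shown. Capitals mark ACAAT at position -118, TGACGTCA at position -72 and CACGTG at position -56 from the start.
FOXD3: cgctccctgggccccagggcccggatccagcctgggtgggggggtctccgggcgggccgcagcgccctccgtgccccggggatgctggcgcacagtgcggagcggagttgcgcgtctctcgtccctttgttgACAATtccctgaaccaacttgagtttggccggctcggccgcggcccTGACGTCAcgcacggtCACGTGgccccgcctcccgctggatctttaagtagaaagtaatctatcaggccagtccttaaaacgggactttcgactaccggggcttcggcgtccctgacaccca
ACAAT occurred in 27.4%, TGACGTCA in 1.85% and CACGTG, the E-box bound by MITF and other helix-loop-helix factors, in 7.26% of all windows.

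**Figure D2:**
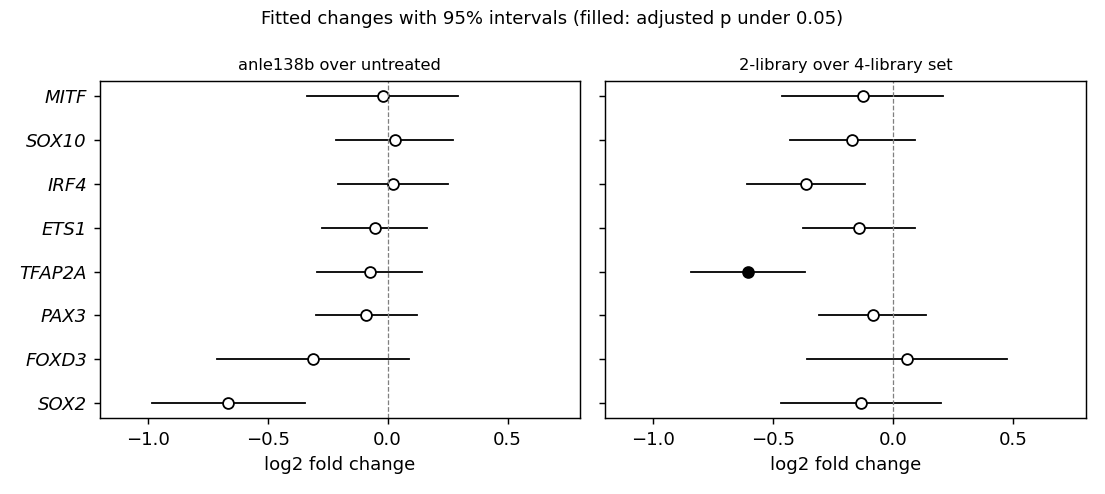
Fitted log2 fold changes of the 8 tested transcription factors, as points with 95% intervals, for anle138b over untreated (left) and for the 2-library over the 4-library set (right); filled points have an adjusted p under 0.05. In the left panel only the interval of SOX2 lies clear of 0 and no point is filled; in the right panel TFAP2A is filled at -0.61.

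Between the naming sets TFAP2A was the only factor called among the 8 tested. SOX9, below the low-count filter, is described further on. TFAP2A was lower in the 2-library set, with 94.51 CPM in anle138b 3 and 103.2 CPM in untreated 3, against 138.9, 157.0, 145.1 and 160.9 CPM in anle138b 1 and 2 and untreated 1 and 2 of the 4-library set. Both tumors of the 2-library set lay below all 4 of the other set. The log2 difference was -0.61 ± 0.11 (adjusted p = 0.00577; -44.3% to -22.6%), and it passed the threshold under each of 14 alternatives, with values from -0.66 to -0.53 and adjusted p up to 0.047 without anle138b 3. The effect of treatment on TFAP2A did not differ detectably between the sets (-0.08 ± 0.21, adjusted p = 0.964).

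The background of this comparison was wide, since 3157 of 20423 genes differed between the sets (15.5%), 1699 of them higher (8.32%) and 1458 lower (7.14%) in the 2-library set, and the sets also differed in depth. 1 of 8 factors called is close to that share. The overall count moved to 5960 without anle138b 2 and to 993 without untreated 3. Some markers of other cells differed too. The 5 skeletal muscle markers summed to 15.9 CPM in anle138b 3 and 16.8 CPM in untreated 3, against 30.4 to 67.4 CPM in the 4-library set. Of them MYH1 (-1.49, adjusted p = 0.00343) and MYH2 (-1.29, adjusted p = 0.00563) were lower, and ACTA1 did not pass (-0.21, adjusted p = 0.678). CKM and TNNT3, not tested, had 10.5 and 6.15 CPM in anle138b 2, the tumor with the sum of 67.4 CPM. In the other tumors they had at most 0.467 and 0.212 CPM. The 6 endothelial markers summed to 19.1 and 15.9 CPM in the 2-library set, against 8.22 to 11.4 CPM in the 4-library set. That sum followed KDR (2.20, adjusted p = 0.000259), at 14.0 and 9.89 CPM against 1.48 to 4.07 CPM. The other 4 tested did not pass and had values below 0: CDH5 (-1.16, adjusted p = 0.0522), CLDN5 (-0.73), TEK (-0.46) and VWF (-0.14). The median of the endothelial markers tested was -0.46. The part of these cell markers in the TFAP2A difference was not tested.

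TFAP2A lies on the minus strand (chr6:10393186-10419659) and overlaps a pair of antisense genes, TFAP2A-AS2 by 941 exonic bases (11.37% of its exons) and TFAP2A-AS1 by 438 (5.29%). TFAP2A-AS1 was also lower in the 2-library set, at 3.47 CPM in anle138b 3 and 3.48 CPM in untreated 3, against 5.58, 5.99, 5.54 and 5.41 CPM in the other 4 tumors (log2 difference -0.70, adjusted p = 0.0339). TFAP2A-AS2 differed by -0.19 (adjusted p = 0.424). Without strand, reads of the shared bases cannot be assigned to one gene or the other. The window of the upstream TFAP2A start (chr6:10419610-10419909, minus strand) is shown because TFAP2A was the tested factor called between the sets. None of the 6 motifs had a match in this window. Another TFAP2A window (chr6:10412342-10412641, minus strand), not printed, held ACAAT at position -186 from its start. TFAP2A has 18 annotated transcript starts, and the counts do not tell which were used.
TFAP2A: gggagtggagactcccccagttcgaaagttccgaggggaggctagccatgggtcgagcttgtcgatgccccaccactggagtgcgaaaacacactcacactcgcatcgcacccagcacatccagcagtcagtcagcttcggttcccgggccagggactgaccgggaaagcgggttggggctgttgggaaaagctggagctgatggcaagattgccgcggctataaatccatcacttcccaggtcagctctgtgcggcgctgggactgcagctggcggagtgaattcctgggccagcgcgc

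IRF4 came nearest after TFAP2A. It had 261.0 CPM in anle138b 3 and 234.1 CPM in untreated 3, against 314.2, 313.0, 301.3 and 346.0 CPM in the 4-library set, again with no overlap. The log2 difference of -0.37 ± 0.11 missed the threshold (adjusted p = 0.0522) and passed it under 6 of 14 alternatives, among them limma voom (adjusted p = 0.0369) and the fit without anle138b 2 (adjusted p = 0.0313). SOX10 values did not overlap either, at 445.7 and 427.5 CPM in the 2-library set and from 449.1 to 529.1 CPM in the 4-library set, yet the log2 difference was -0.17 ± 0.12 (adjusted p = 0.343). Together 3 of the 8 factors lay below the other set in both tumors, beside 19.4% of all genes tested. MITF (-0.13, adjusted p = 0.593), PAX3 (-0.09, adjusted p = 0.587), ETS1 (-0.14, adjusted p = 0.376), SOX2 (-0.14, adjusted p = 0.569) and FOXD3 (0.06, adjusted p = 0.865) did not pass the test, and the median over the 8 was -0.14, beside -0.02 over all genes.

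**Figure D3:**
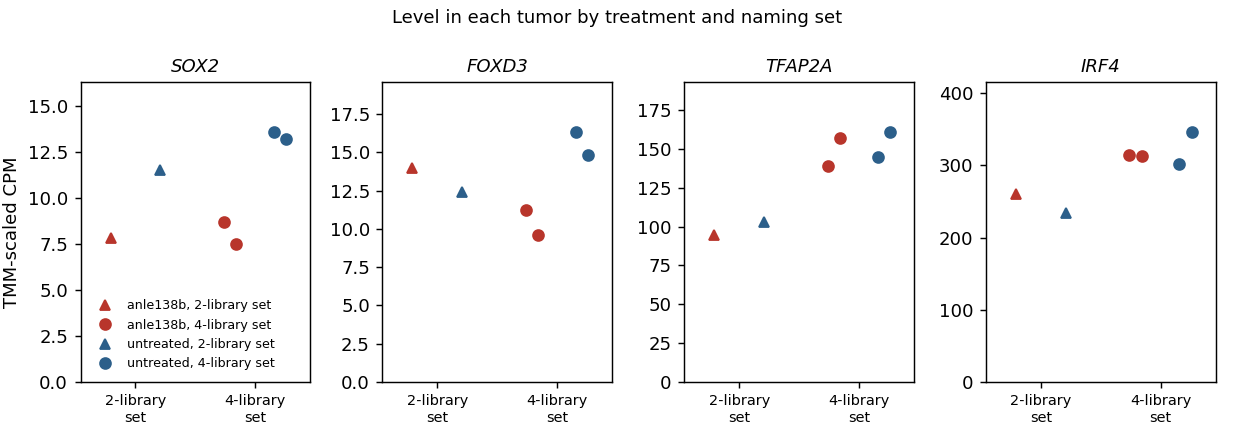
TMM-scaled CPM of SOX2, FOXD3, TFAP2A and IRF4 in each tumor, with the 2-library set at the left and the 4-library set at the right of each panel, anle138b in red and untreated in blue; each vertical axis starts at 0. SOX2 is lower in anle138b tumors in both sets, FOXD3 is higher in them in the 2-library set and lower in the 4-library set, and TFAP2A and IRF4 are lower in both tumors of the 2-library set.

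SOX9 and TFAP2B did not pass the low-count filter and are given as counts. SOX9, a SOX-group E relative of SOX10 that is tied to the less differentiated melanoma state, had 1, 2 and 31 counts in the anle138b tumors, against 6, 1 and 54 counts in the untreated tumors. The high values were those of the 2-library set, 85 counts together against 10 in the 4-library set, a ratio of pooled CPM of 9.1 (exact 95% interval 4.72 to 19.7, counting error only). For treatment the pooled ratio was 0.554 (34 against 61 counts; 0.353 to 0.856, counting error only), while counts within a group ranged from 1 to 31 and from 1 to 54. In a fit without the filter the set difference was 3.24 ± 0.45 on the log2 scale (adjusted p = 2.32e-11) and the treatment difference -1.02 ± 0.44 (adjusted p = 0.484), in a fit that called 6250 genes between the sets. TYRP1, at a treatment value of 1.42 with or without the filter, had an adjusted p of 1.21e-39 in that fit and 0.0692 in the main fit. The p-values of that fit are therefore not counted as support.

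Of the 6 markers of keratinocytes, skin cells that can also express SOX9, KRT5, DSG3 and TP63 were higher in both tumors of the 2-library set than in the other 4, and KRT14, KRT1 and KRT10 were not. KRT5 had 0.389 CPM in anle138b 3 and 1.66 CPM in untreated 3, against 0.0609 to 0.0799 CPM in the 4-library set, DSG3 had 0.425 and 1.10 CPM against 0 to 0.148 CPM, and TP63 had 1.98 and 2.12 CPM against 0.365 to 1.12 CPM. KRT14 had 0.46 and 1.10 CPM against 0.153 to 0.518 CPM, and KRT1 had 0 and 0.509 CPM against 0 to 0.0741 CPM. KRT10, which made up most of the summed level, had 18.1 and 19.5 CPM against 16.4 to 22.8 CPM (log2 difference -0.08, adjusted p = 0.769). SOX9-AS1, an antisense neighbour with no shared exonic base, had 34 and 25 counts in the 2-library set, against 4, 9, 10 and 6 counts in the 4-library set (log2 difference 1.11, adjusted p = 0.0676). The summed level of the 6 keratinocyte markers was 21.3 and 26.0 CPM in the 2-library set and 17.8 to 24.4 CPM in the 4-library set, and their part in the SOX9 counts was not tested. TFAP2B, a relative of TFAP2A active in early crest, had 1, 0 and 9 counts in the anle138b tumors and 0, 1 and 1 counts in the untreated tumors, under the floor of 3 counts in all but anle138b 3.

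The known targets of MITF and SOX10, which share TYR and DCT, were described as lists. Of 18 MITF target genes tested, 0 rose and 1 fell in the anle138b tumors, beside 0.656% of all genes higher and 0.397% lower. Their median log2 fold change was -0.13, beside -0.01 over all genes. The gene was MET, the receptor of hepatocyte growth factor, with 103.7, 109.8 and 70.13 CPM in anle138b tumors, against 142.8, 178.1 and 162.2 CPM in untreated tumors. The groups did not overlap, and the log2 fold change was -0.80 ± 0.14 (adjusted p = 0.0356). This call was lost without the set term (adjusted p = 0.434), in the 4-library set alone (0.14), and without anle138b 1 (0.112), anle138b 3 (0.185), untreated 2 (0.103) or untreated 3 (0.111).

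None of the pigment genes among the targets passed the test for treatment, and their values differed in sign. TYRP1, a melanosomal enzyme, had 492.1, 493.0 and 861.5 CPM in the anle138b tumors, against 145.8, 104.3 and 703.9 CPM in the untreated tumors, a log2 fold change of 1.42 ± 0.30 (adjusted p = 0.0692) that passed the threshold under 6 of 16 alternatives. Within each set the anle138b tumors were higher, but untreated 3 lay above anle138b 1 and 2. In the 4-library set alone the log2 fold change of TYRP1 was 1.98. Its treatment effect in the 2-library set was smaller by 1.69 ± 0.29 on the log2 scale, a difference that did not pass the adjusted threshold. DCT, dopachrome tautomerase, had 2964, 3077 and 3316 CPM in the anle138b tumors, against 2386, 2199 and 2401 CPM in the untreated tumors. The groups did not overlap, and the log2 fold change of 0.42 ± 0.12 did not pass (adjusted p = 0.228). DCT passed under 2 of 16 alternatives, DESeq2 (0.00417) and no low-count filter (7.25e-05), and the pass without the filter is not counted as support. TYR (0.27, adjusted p = 0.493) and GPR143 (0.16, adjusted p = 0.855) had values above 0, and MLANA (-0.18, adjusted p = 0.802) and PMEL (-0.10, adjusted p = 0.967) below 0. Of the 8 melanocytic markers 0 passed, with a median of 0.04. Of 11 SOX10 targets tested, 0 passed in either direction for treatment, and their median was -0.11. The sister factors TFEB (-0.40, adjusted p = 0.432) and TFE3 (-0.12, adjusted p = 0.928), which share the DNA-binding domain of MITF, did not pass.

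MITF and SOX10 themselves did not pass the test between the sets, and some genes of both target lists did. Of the 18 MITF targets 3 were higher in the 2-library set (TYRP1, MLANA and BCL2A1) and 2 lower (CDK2 and PPARGC1A), beside 8.32% of all genes higher and 7.14% lower. BCL2A1, an antiapoptotic BCL2 relative, had 60.8 and 75.7 CPM in the 2-library set, against 24.5 to 32.2 CPM in the 4-library set (log2 difference 1.27 ± 0.11, adjusted p = 9.67e-05). Of the 11 SOX10 targets 5 were higher and 0 lower, among them ERBB3, S100B, CDH19 and NES, beside the same shares of all genes. The intermediate filament gene NES had 259.6 and 219.6 CPM in the 2-library set, against 108.1 to 136.8 CPM in the 4-library set (0.94 ± 0.12, adjusted p = 0.000855), and the cadherin gene CDH19 differed by 0.92 ± 0.10 (adjusted p = 0.000528). The median of the SOX10 targets was 0.37, beside -0.02 over all genes. Schwann cell markers summed to 295 and 415 CPM in the 2-library set and to 259 to 308 CPM in the 4-library set, with 2 of 5 (EGR2 and PMP2) higher, and their part was not tested. MLANA, CDK2, PPARGC1A and ERBB3 here, and AXL below, are outside the rule for named genes and were chosen after their values were seen.

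Among 8 signals that act on MITF, such as the receptors KIT, EDNRB and MC1R, 0 passed for treatment, with a median of 0.08. Between the sets KIT, the stem cell factor receptor of melanocytes, was higher in the 2-library set, with 26.3 CPM in anle138b 3 and 22.1 CPM in untreated 3, against 3.75, 2.16, 2.56 and 3.78 CPM in the other 4 tumors (log2 difference 2.98 ± 0.21, adjusted p = 3e-05). Its ligand KITLG was lower (-0.55 ± 0.13, adjusted p = 0.0217), a call lost without anle138b 1 (0.0705), anle138b 3 (0.0852) or untreated 3 (0.131).

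Among relatives of the 10 factors, SNAI2 and ETS2 rose in the anle138b tumors. Of 15 other neural crest factors tested, 1 rose and 0 fell, with a median of 0.01, beside 0.656% of all genes higher and 0.397% lower. SNAI2, the zinc-finger factor Slug, which acts in crest migration and in melanocyte survival, had 123.5, 147.0 and 192.9 CPM in the anle138b tumors, against 49.5, 61.2 and 62.7 CPM in the untreated tumors. Every anle138b tumor was well above every untreated tumor, and the log2 fold change was 1.40 ± 0.13 (adjusted p = 0.000868). It was lost under 1 of 16 alternatives, the fit without the set term (adjusted p = 0.074). Of 6 fibroblast markers, LUM, a matrix proteoglycan gene, also rose, with 230.1, 200.9 and 223.2 CPM in the anle138b tumors, against 138.1, 154.1 and 112.8 CPM in the untreated tumors (0.70 ± 0.12, adjusted p = 0.0249); the other 5 did not pass, and their part in the SNAI2 values was not tested. Of 9 other ETS genes 1 rose and 0 fell, beside the same shares of all genes. ETS2, the closest paralogue of ETS1, had 41.9, 41.1 and 50.8 CPM in the anle138b tumors, against 27.2, 26.1 and 26.7 CPM in the untreated tumors, a log2 fold change of 0.74 ± 0.11 (adjusted p = 0.012). The ETS2 call was lost without the set term (0.162), in the 4-library set alone (0.0682) and without anle138b 1 (0.0665) or anle138b 3 (0.0875). Of 6 other SOX genes and 7 other IRF genes tested, 0 passed in either direction.

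The same lists held wider differences between the sets. SOX8, the third SOX-group E gene beside SOX9 and SOX10, had 14.6 CPM in anle138b 3 and 18.7 CPM in untreated 3, against 1.15, 0.799, 1.95 and 2.00 CPM in the other 4 tumors, a log2 difference of 3.52 ± 0.21 (adjusted p = 1.2e-05). SOX5 was higher by 0.33 ± 0.10 (adjusted p = 0.0491), a call lost when any 1 tumor was left out (adjusted p from 0.0649 to 0.326). ZEB1, a repressor of epithelial genes that marks melanoma cells with low MITF, had 18.2 and 18.0 CPM in the 2-library set, against 1.30, 0.879, 1.10 and 0.593 CPM in the 4-library set (4.21 ± 0.23, adjusted p = 7.05e-06), and ID3, an inhibitor of helix-loop-helix factors, differed by 2.26 ± 0.29 (adjusted p = 0.00104; 1.62 to 2.89 over the alternatives). Among interferon regulatory factors IRF8 was higher and IRF5 lower, and among ETS genes ELF1 was lower. Each of these 3 calls was lost without untreated 3 (adjusted p = 0.115, 0.305 and 0.234), IRF8 and ELF1 also without anle138b 3 (0.0884 and 0.0795), IRF5 and ELF1 also without anle138b 1 (0.0558 and 0.0844), and IRF5 without untreated 2 (0.0536).

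Genes of the state opposite to high MITF, in which melanoma cells express receptor kinases and matrix genes, were tested as a list of 10. For treatment 0 passed in either direction, with a median log2 fold change of 0.20. Between the sets 2 were higher (AXL and EGFR) and 1 was lower (FOSL1), beside 8.32% of all genes higher and 7.14% lower. The median was 0.38, beside -0.02 over all genes. EGFR had 24.3 CPM in anle138b 3 and 11.5 CPM in untreated 3, against 3.44, 3.83, 3.23 and 2.44 CPM in the other 4 tumors (2.39 ± 0.20, adjusted p = 9.21e-05). FOSL1, a subunit of the AP-1 factor, had 6.83 and 6.41 CPM in the 2-library set, against 14.9 to 20.4 CPM in the 4-library set (-1.40 ± 0.16, adjusted p = 0.000514). Fibroblast markers, of which PDGFRB is on both lists, summed to 821 and 558 CPM in the 2-library set and 412 to 509 CPM in the 4-library set, and 3 of 6 (COL1A1, COL1A2 and COL3A1) were higher; their part in these differences was not tested.

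**Figure D4:**
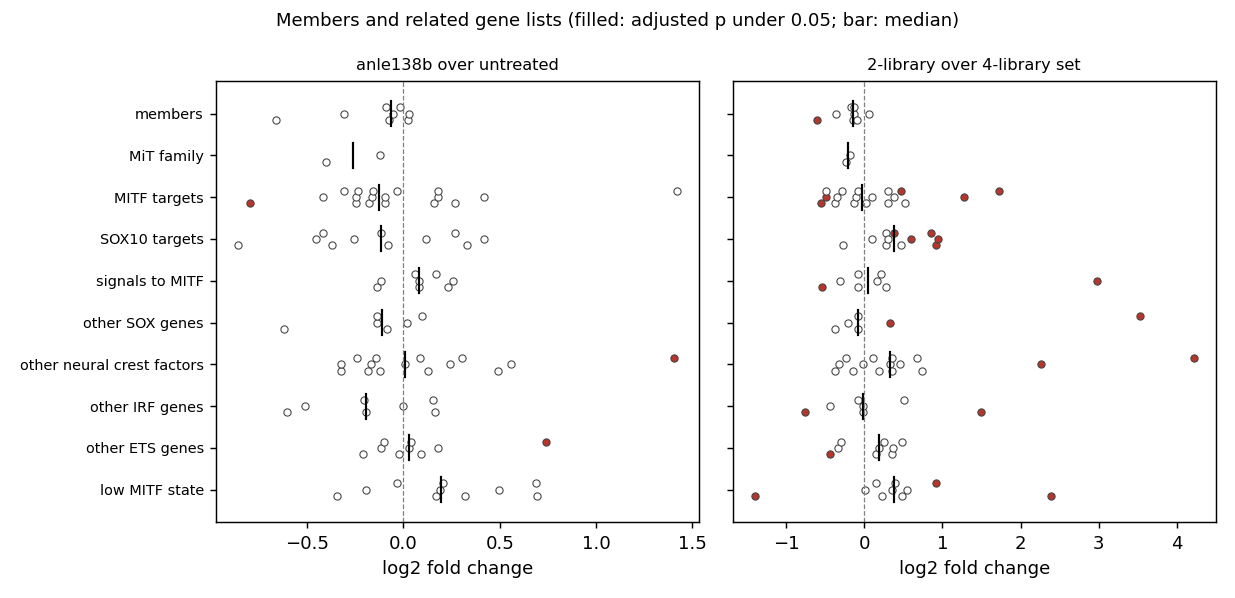
Log2 fold changes of every tested gene of the members and of the 9 related lists, for anle138b over untreated (left) and the 2-library over the 4-library set (right); red points have an adjusted p under 0.05 and black bars are medians. On the left the red points are MET at -0.80, SNAI2 at 1.40 and ETS2 at 0.74; on the right TFAP2A at -0.61 is the red point among the 8 factors, and ZEB1, SOX8 and KIT lie farthest to the right.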

How the data were processed

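RNA was extracted with Trizol and made into libraries with the TruSeq v2 RNA kit, which does not mark strand, per the labels' protocols. Each deposited file gives the raw read counts of 1 tumor by gene. The submitters' processing notes name bcl2fastq 2.17.1.14, STAR 2.5.2a, featureCounts 1.5.0-p1 and hg38. The sources used here do not give the annotation release, the strand and multimapping settings or the handling of host reads. Of 60617 identifiers, 58542 were in GENCODE 29, which gave positions and exonic lengths.

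The counts were tested in R 4.3.3 with edgeR 4.0.16. The filter filterByExpr (minimum count 10, total 15) left 20423 genes, followed by TMM scaling and the quasi-likelihood F test. The design held treatment and set (residual degrees of freedom 3), or also their interaction (2), with Benjamini-Hochberg adjustment over all genes at 0.05. The biological coefficient of variation was 12.8%. Log2 CPM used a prior count of 2. Reads carry no molecular identifiers, so floors of 3 counts and exact intervals cover counting error only. Library pairs differed beyond sampling noise (chi-square per degree of freedom 8.97 to 49.7). The fits were checked on simulated data. Alternatives used DESeq2 1.42.0, limma 3.58.1 voom, other scalings and filters, and fewer libraries.

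The members, the lists, the tests and the rule for named genes were chosen with earlier results of these data known. The rule took all members and, from each other list, up to 4 genes with the smallest p for treatment and 2 between sets; only some of these are described. Promoter windows came from RefSeq (GRCh38.p14), with entries for 7 of the 10 genes (not SOX10, SOX9 and ETS1).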

Additional observations from a re-analysis of the deposited data

How the results depend on the processing

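Of the 8 factors tested, 0 passed for treatment under all alternatives but 2: without a low-count filter, 1 did, SOX2 (-0.66), and by the DESeq2 Wald test 1 did, SOX2 (-0.65). Those fits called 754 of 46484 and 412 of 20423 genes. As said above, the p-values of the fit without the filter are not counted as support. The number of genes called for treatment was 9 without the set term, 92 in the 4-library set alone, 754 without the filter, 412 by DESeq2 and 89 to 392 with 1 tumor left out. Between the sets, 6250 genes were called without the filter and 993 to 5960 with 1 tumor left out. Of the factors, 3 differed between sets without the filter (TFAP2A, IRF4 and SOX9), in a fit that called 6250 of 46484 genes. With 50 counts in 3 libraries, by DESeq2, by voom and among protein-coding genes, 2 did (TFAP2A and IRF4). In that order, these fits called 2590 of 13820, 3129 of 20423, 3399 of 20423 and 3234 of 13695 genes. With 1 tumor of the 4-library set left out it was 2 to 3, SOX9 among them. Over all genes, 2229 of 22119 were called without anle138b 1 and 5960 of 21896 without anle138b 2. Without untreated 1 it was 2801 of 21441, and without untreated 2 it was 2872 of 22148. Only in these 4 of the 6 fits with 1 tumor left out did SOX9 pass the filter. It passed through the 2 tumors of the 2-library set, where its counts were high. Its call between the sets in these fits is therefore no separate evidence of a difference. IRF4 passed at -0.34 without the filter, -0.32 with 50 counts in 3 libraries, -0.36 by DESeq2, -0.36 by voom, -0.35 among protein-coding genes and -0.40 without anle138b 2 (-0.47 to -0.25 over all tumors left out). The treatment effect differed between sets for 1 gene with upper-quartile scaling, 11 with library size alone, 262 without the filter, 31 by DESeq2 and 24 to 436 with 1 tumor left out; the cause of these shifts was not tested.

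Signs turned only for values near 0 that passed no test. In the 4-library set alone treatment values were 0.11 for MITF, -0.044 for IRF4 and 0.029 for ETS1. With 1 tumor left out they spanned -0.13 to 0.12 for MITF, -0.015 to 0.104 for SOX10, -0.045 to 0.10 for IRF4 and -0.115 to 0.039 for ETS1, and set differences spanned -0.315 to 0.062 for MITF and -0.33 to 0.44 for FOXD3. The difference of the treatment effect between sets was -0.023 for SOX10 and -0.064 for PAX3 with upper-quartile scaling, and for PAX3 -0.008 with 50 counts in 3 libraries and -0.011 among protein-coding genes; with 1 tumor left out it spanned -0.074 to 0.159 for SOX10, -0.061 to 0.088 for PAX3 and -0.153 to 0.018 for TFAP2A.

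No paired analysis was possible because the replicate numbers follow listing order and pair no tumors. Leaving out anle138b 3 or untreated 3 leaves the 2-library set with 1 tumor, assumed to vary like the others. With 3 tumors a group, changes within the printed intervals were not resolved, and SOX9 and TFAP2B were under the low-count filter with all 6 tumors.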
